A study of Homo sapiens with 9 samples.

Results

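The genes described here are the ligands of the T cell checkpoint receptor PD-1, CD274 (PD-L1) and PDCD1LG2 (PD-L2), with 7 genes of antigen presentation by MHC class I: HLA-B, HLA-C, HLA-E, HLA-F, B2M, TAP1 and TAPBP. They are 9 of the 60671 genes in the deposited table, matched by gene name, and all 9 were among the 16996 genes tested. The 9 genes were chosen from earlier results on the same libraries, so their differences between groups are given as a description with standard errors and without p-values. Polyadenylated RNA was sequenced from AC16 cells, an established human line derived from ventricular heart cells fused with a fibroblast line and labelled as cardiomyocyte. The labels give 3 libraries for each of 3 treatments: low glucose, high glucose, and high glucose together with the flavonoid chrysin. The labels name no genetic change in any group. The sources used here state no glucose concentration, chrysin dose or treatment time, and do not say whether replicates came from separate cultures. The p-values below therefore reflect no more than the scatter among these libraries, and that scatter may be technical.

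MHC class I molecules display short peptides from inside the cell to CD8 T cells. A heavy chain, such as HLA-B or HLA-C, pairs with B2M (beta-2-microglobulin) in the endoplasmic reticulum. The TAP transporter, of which TAP1 is a subunit, brings peptides in, and tapasin (TAPBP) holds empty class I molecules next to it until a peptide is bound. PD-L1 and PD-L2 on the cell surface bind PD-1 on T cells and dampen their response. Interferon, acting in part through IRF1, is the best known inducer of PD-L1 and of class I genes, and NLRC5 is a transactivator of class I promoters.

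CD274 and PDCD1LG2 are neighbours on chromosome 9, at 5450503 to 5470566 and 5510570 to 5571254 on the plus strand (GENCODE 29, hg38). B2M lies on chromosome 15 (44711487 to 44718877, plus strand). The other 6 genes are in the MHC region of chromosome 6. HLA-F lies at 29722775 to 29738528 and HLA-E at 30489467 to 30494205, both on the plus strand. HLA-C (31268749 to 31272130), HLA-B (31269491 to 31357188), TAP1 (32845209 to 32853978) and TAPBP (33299694 to 33314387) are on the minus strand. The annotated HLA-B gene model reaches over HLA-C on the same strand, HLA-F overlaps HLA-F-AS1, and TAP1 overlaps PSMB8-AS1 and PSMB9 on the other strand. Class I heavy chains are also close in sequence and highly polymorphic. The sources used here do not say how the authors' counting split reads among such genes or whether strand was used, so the split among HLA genes is uncertain.

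RefSeq promoter windows (GRCh38.p14) were found for 7 of the 9 genes, with none for PDCD1LG2 and HLA-E. The windows of CD274, HLA-B, HLA-C and B2M are shown because CD274 differed between groups in the opposite direction to the 3 class I genes when chrysin was added. Each line gives 210 bases of the reference genome, 5′ to 3′ on the gene's strand, ending 41 bases before the annotated start. Capitals mark matches, on either strand, to the motifs named after the sequences. They are reference sequence and were not read from AC16.
CD274 promoter (chr9:5450292-5450501, plus strand): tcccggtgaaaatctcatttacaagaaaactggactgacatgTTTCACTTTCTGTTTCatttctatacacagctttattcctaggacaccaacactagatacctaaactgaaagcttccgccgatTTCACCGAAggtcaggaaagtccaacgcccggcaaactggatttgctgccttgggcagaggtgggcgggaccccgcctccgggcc
HLA-B promoter (chr6:31357220-31357429, minus strand): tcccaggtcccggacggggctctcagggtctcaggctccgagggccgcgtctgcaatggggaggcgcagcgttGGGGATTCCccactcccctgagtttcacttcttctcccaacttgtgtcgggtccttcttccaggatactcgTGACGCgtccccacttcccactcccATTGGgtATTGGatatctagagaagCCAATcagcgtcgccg
HLA-C promoter (chr6:31272133-31272342, minus strand): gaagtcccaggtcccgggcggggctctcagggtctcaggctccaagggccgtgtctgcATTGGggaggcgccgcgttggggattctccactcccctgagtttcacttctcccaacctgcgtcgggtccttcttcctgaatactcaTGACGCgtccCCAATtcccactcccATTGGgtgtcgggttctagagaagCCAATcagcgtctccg
B2M promoter (chr15:44711267-44711476, plus strand): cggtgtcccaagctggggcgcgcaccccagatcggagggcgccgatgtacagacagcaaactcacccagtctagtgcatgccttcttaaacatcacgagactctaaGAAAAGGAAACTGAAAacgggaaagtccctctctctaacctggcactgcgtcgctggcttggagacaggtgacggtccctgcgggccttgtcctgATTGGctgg

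The motif GAAANNGAAA, a pair of half-sites of the kind bound by interferon regulatory factors, was present in 3.02% of all 35116 RefSeq windows of 250 bases before a start. It was found in the windows of CD274, B2M, HLA-F, TAP1 and TAPBP, with overlapping matches at -208 to -199 and -202 to -193 in CD274 and at -144 to -135 and -138 to -129 in B2M. TTCNNNGAA, the form of a STAT site, stood at -125 to -117 in CD274 and in a further TAP1 window, and in 6.57% of all windows. HLA-B and HLA-C shared TGACGC (7.67% of all windows), at -106 to -101 and -105 to -100, the core of the class I X2 box. Their windows also held CCAAT (32% of all windows), as did those of B2M, HLA-F and TAP1. GGGGATTCC, an NF-kB site, was present in HLA-B alone among these genes, and in 0.253% of all windows. These letters were not in the windows of the other genes, which says nothing about binding by the factors.

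Levels are in FPKM, which counts fragments for each kilobase of a transcript and scales them to the size of the library. Recovered whole reads ran from 18171842 to 23024300 per library. The first high glucose library was unlike its replicates, with a chi-square per highly counted gene of 28.1 and 31.5, where other replicate pairs gave 4.82 to 7.44. Mitochondrially encoded genes took 2.79% to 3.04% of reads without chrysin and 3.8% to 3.89% with it. Of 12 cardiomyocyte markers, 2 (NPPB and GATA4) reached a mean of 0.5 FPKM and MYL2 and NKX2-5 were listed at 0, whereas all 10 fibroblast markers reached it. The label as a cardiomyocyte line was thus not matched by the contractile markers. Of 14 leukocyte markers CD3D, CD3E, MS4A1, FCGR3A and NKG7 were listed at 0, and their sum was 3.42 to 3.88, 5.4 to 5.96 and 3.08 to 3.59 FPKM in the low glucose, high glucose and chrysin groups. The 6 endothelial markers summed to 1.68 to 2.19, 1.68 to 2.19 and 0.921 to 1.46 FPKM.

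**Figure D1:**
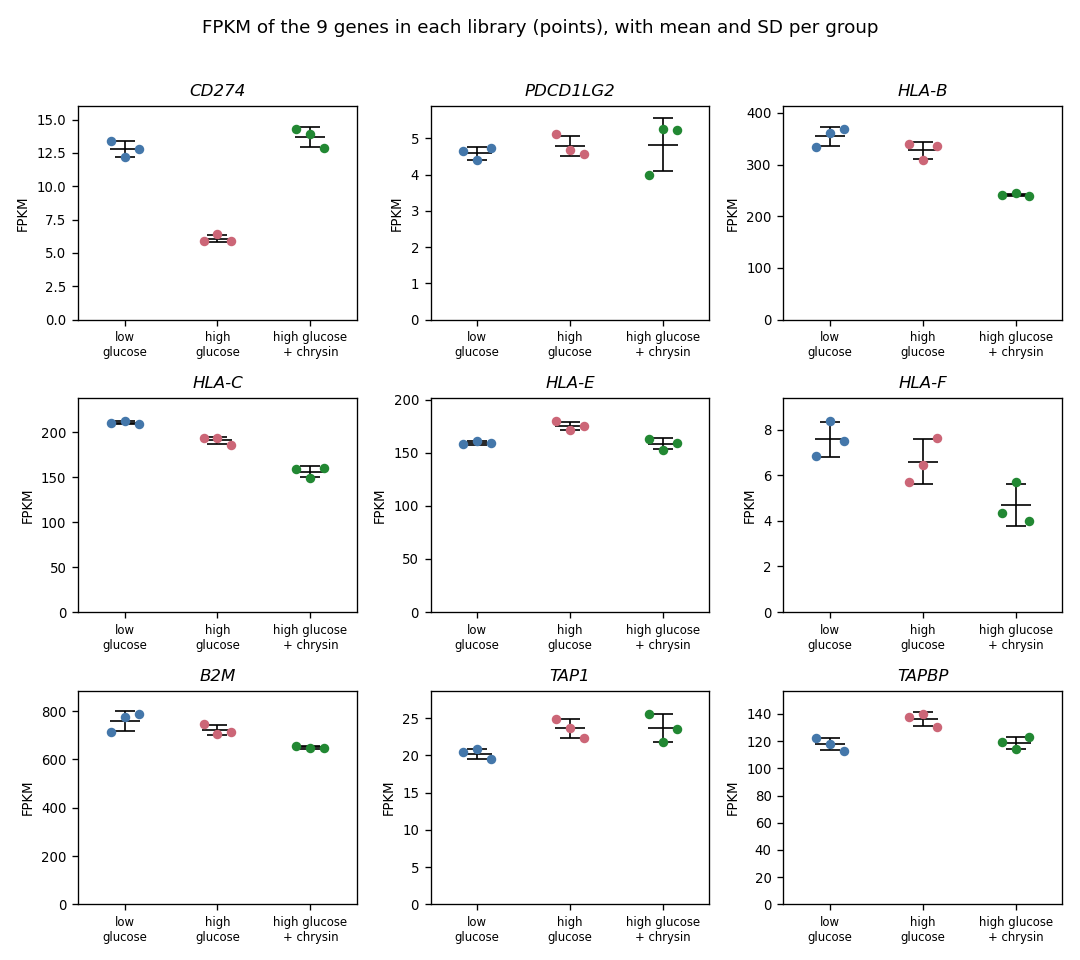
FPKM (vertical axis, linear, from 0) of each of the 9 genes in the 3 libraries of each treatment (points), with the group mean and SD (bars). The 3 high glucose libraries of CD274 sit between 5.91 and 6.39 FPKM, below all other libraries, and the chrysin libraries of HLA-B, HLA-C and B2M are below those of the other groups.

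CD274 was the member that differed most. It was about 2-fold lower in high glucose than in low glucose, and with chrysin added its libraries overlapped those of low glucose. Its FPKM was 13.4, 12.2 and 12.8 in low glucose libraries 1 to 3, 5.91, 6.39 and 5.91 in high glucose, and 14.3, 13.9 and 12.9 with chrysin. The high glucose libraries were below all 6 others without overlap, while the low glucose and chrysin libraries overlapped. Group means were 12.8 ± 0.57, 6.07 ± 0.28 and 13.7 ± 0.69 FPKM (SD, n = 3). On the log2(FPKM + 0.5) scale, used for all differences here and known to understate those of low genes, high glucose was lower than low glucose by 2.02-fold (log2 difference -1.02, SE 0.06). Chrysin with high glucose was higher than high glucose alone by 2.16-fold (log2 difference 1.11, SE 0.06), and stood 0.09 (SE 0.06) from low glucose. These values rest on 201 to 500 recovered reads per library. Leaving out any library, the first high glucose library included, gave -1.05 to -0.99 for high against low glucose and 1.08 to 1.15 for chrysin against high glucose. In bulk RNA a smaller share of cells with a transcript and less of it per cell cannot be told apart. The summed fibroblast and leukocyte markers stood highest in high glucose, where CD274 was lowest, while the endothelial sums were alike in low and high glucose. The 10 fibroblast markers summed to 7634 to 7933, 9041 to 9515 and 6349.9 to 6512 FPKM in low glucose, high glucose and chrysin. COL1A1 weighed most in that order, with means of 3707, 5138 and 2899 FPKM. By their means COL3A1, VIM and PDGFRB were highest in low glucose, and THY1 and S100A4 with chrysin. Of the leukocyte markers, with the sums given above, CD14 had means of 2.22, 3.91 and 1.94 FPKM. Between glucose levels 0 fibroblast markers were called lower, or 1 when high glucose library 1 was left out, beside 8.91% of all genes. Called higher were 4, beside 14.6% of all genes. These were COL1A1 (0.47, adjusted p = 1.3e-05 by limma), THY1 (0.35, adjusted p = 1.3e-05), COL1A2 (0.27, adjusted p = 3.1e-05) and S100A4 (0.44, adjusted p = 0.036, lost in 7 of 17 alternative analyses). Their part in the values of CD274 and of the genes below was not tested.

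PDCD1LG2 did not follow CD274, although the genes are neighbours. Its FPKM was 4.65, 4.39 and 4.72 in low glucose, 5.11, 4.69 and 4.58 in high glucose, and 3.99, 5.26 and 5.23 with chrysin. The 3 groups overlapped, with the lowest and the highest library both in the chrysin group. All 3 log2 differences were at most 0.06 in size, with an SE of 0.11, so a difference of that order was not detectable here. The ratio of CD274 to PDCD1LG2 was 2.88, 2.79 and 2.71 in low glucose, 1.16, 1.36 and 1.29 in high glucose and 3.58, 2.64 and 2.47 with chrysin. Its range in high glucose lay below the ranges of the other groups, which overlapped each other.

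The classical heavy chains HLA-B and HLA-C, which present peptides to CD8 T cells, were lowest with chrysin. HLA-B had 333, 361 and 369 FPKM in low glucose, 339, 309 and 335 in high glucose, and 241, 244 and 240.1 with chrysin. The chrysin libraries were below all others, and the low and high glucose libraries overlapped. Against high glucose the HLA-B difference with chrysin was -0.44 (SE 0.04), or 26.0% lower, and against low glucose -0.55 (SE 0.04), or 31.7% lower. Between high and low glucose it was -0.11 (SE 0.04), which was not called, although it was called in 5 of the alternative analyses listed in the closing section.

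HLA-C was the member whose 3 groups were all separate, in the order low glucose, high glucose, chrysin. Its FPKM was 209.8, 212 and 209, then 193, 193 and 186, then 159, 149 and 159.8. The differences were -0.14 for high against low glucose, -0.29 for chrysin against high glucose and -0.43 for chrysin against low glucose (SE 0.03 each). HLA-B and HLA-C had similar reads (5821 and 5358 in low glucose library 1). The lengths behind their FPKM were 837 and 1224 bases, so the higher HLA-B level depends on the length the authors' table used.

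HLA-E, a non-classical heavy chain that shows leader peptides of other class I molecules to natural killer cells, followed another order. It had 158, 161 and 159 FPKM in low glucose, 179.8, 172 and 175 in high glucose, and 163, 153 and 159.7 with chrysin. High glucose was above both other groups without overlap, by 0.14 over low glucose and with chrysin lower again by -0.15 (SE 0.03 each), and the low glucose and chrysin libraries overlapped. HLA-F, a non-classical heavy chain with few reads (72 to 138 per library), had 6.86, 8.37 and 7.51 FPKM in low glucose, 5.69, 6.46 and 7.64 in high glucose, and 4.33, 5.72 and 3.98 with chrysin. Only low glucose and chrysin were separate for HLA-F (-0.65, SE 0.14). Its difference of -0.46 (SE 0.14) between chrysin and high glucose was called although the groups overlapped (5.72 with chrysin, 5.69 in high glucose). That call was lost with no filter and when high glucose library 3, chrysin library 1 or chrysin library 3 was left out (differences of -0.36 to -0.46).

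B2M, the light chain shared by all class I molecules, was also lowest with chrysin, by a smaller margin than HLA-B. Its FPKM was 713, 775 and 789 in low glucose, 746, 704 and 714 in high glucose, and 656, 647 and 645 with chrysin. The chrysin libraries were below all others and the low and high glucose libraries overlapped. The differences with chrysin were -0.15 against high glucose and -0.22 against low glucose (SE 0.04 each). Between high and low glucose B2M stood at -0.07 (SE 0.04), not called, but called without low glucose library 1 (-0.12).

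The peptide-loading genes TAP1 and TAPBP were not lowest with chrysin as HLA-B and HLA-C were. TAP1 had 20.4, 20.8 and 19.5 FPKM in low glucose, 24.9, 23.7 and 22.3 in high glucose, and 25.6, 21.8 and 23.6 with chrysin. The low glucose libraries were below all others, and the high glucose and chrysin libraries overlapped. TAP1 differed from low glucose by 0.22 (SE 0.06) in both high glucose groups and by 0.00 (SE 0.06) between them. Against low glucose the call in high glucose was lost in 7 of 18 alternative analyses (differences of 0.15 to 0.22), among them those that left out low glucose library 1 (0.22), low glucose library 3 (0.19), high glucose library 1 (0.18) or high glucose library 2 (0.22). The call with chrysin was lost without low glucose library 3 (0.19) or chrysin library 1 (0.16).

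TAPBP had 122, 118 and 113 FPKM in low glucose, 138, 140.1 and 130.0 in high glucose, and 119, 114 and 123 with chrysin. High glucose was above both other groups without overlap, as for HLA-E, and the low glucose and chrysin libraries overlapped. TAPBP was higher in high glucose by 0.21 and lower with chrysin by -0.20 (SE 0.04 each), with 0.01 (SE 0.04) between chrysin and low glucose.

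**Figure D2:**
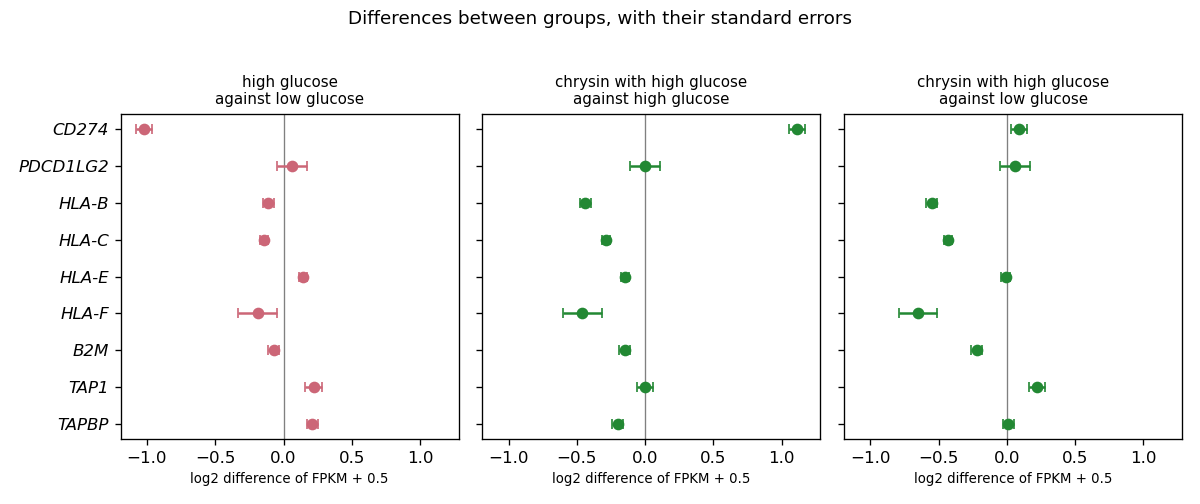
Differences between group means on the log2(FPKM + 0.5) scale (horizontal axis) for the 9 genes, with standard errors from limma, in the 3 comparisons. CD274 lies at -1.02 and 1.11 in the first and second panels and near 0 in the last, and the class I genes spread over a narrower range.

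Counted over the 9 genes, 5 were called by limma (adjusted p under 0.05 over all genes tested) in high against low glucose, beside 23.5% of all genes tested. HLA-E, TAP1 and TAPBP were higher (14.6% of all genes) and CD274 and HLA-C lower (8.91%). The groups did not overlap for those same 5, beside 37.9% of all genes. In chrysin against high glucose 7 were called, beside 45.8% of all genes. CD274 was higher (24.9%), and HLA-B, HLA-C, HLA-E, HLA-F, B2M and TAPBP were lower (20.9%). All of these but HLA-F had groups that did not overlap, beside 54.3% of all genes. In chrysin against low glucose 5 were called, beside 51% of all genes. TAP1 was higher (29.7%) and HLA-B, HLA-C, HLA-F and B2M were lower (21.3%), and these 5 did not overlap, beside 60% of all genes. The median differences of the 9 genes were -0.07, -0.15 and -0.01, and those of all genes tested 0.02, 0.03 and 0.05. Since earlier results entered the choice of the genes, these counts describe them and show nothing about the pathway. High glucose libraries serve in the first and second comparisons, and so opposite signs in them are not independent.

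Several ratios within a library set the members against each other. The summed FPKM of HLA-B, HLA-C, HLA-E and HLA-F was 732 ± 21 (SD, n = 3) in the low glucose libraries, 701 ± 19 under high glucose, and 561 ± 7.9 where chrysin was added. HLA-E made up 22.3%, 21.7% and 21.4% of that sum in low glucose, 25%, 25.2% and 24.9% in high glucose and 28.7%, 27.7% and 28.3% with chrysin. HLA-E's share was thus higher in each group in that order, with no overlap, although its own level was highest in high glucose. The share of HLA-B was 48.4 ± 1.2%, 46.7 ± 1.2% and 43.1 ± 0.98%, with the chrysin libraries (42.6% to 44.3%) below the others (45.4% to 49.5%). The ratio of B2M to the summed heavy chains was 1.01 to 1.06 without chrysin and 1.16, 1.17 and 1.14 with it. TAP1 over TAPBP was 0.167 to 0.18 without chrysin and 0.216, 0.192 and 0.192 with it. These shares and ratios depend on the length used for each gene, but their order between groups does not for a ratio of 2 genes.

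**Figure D3:**
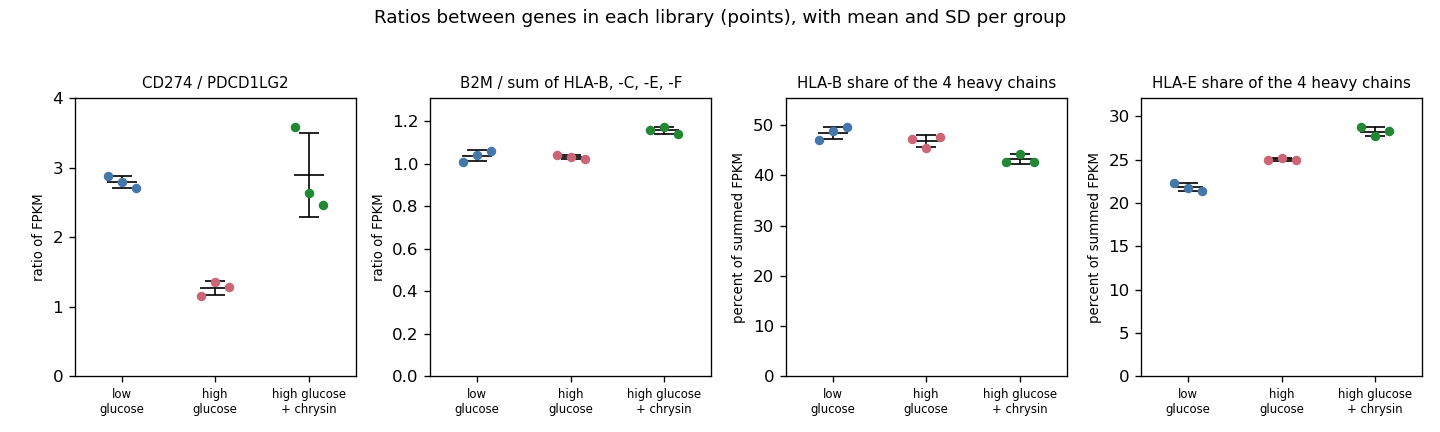
Ratios of FPKM and shares of the summed FPKM of the 4 heavy chains (vertical axes, from 0) in each library (points), with the mean and SD of each treatment (bars). The chrysin libraries lie above the others for B2M over heavy chains (1.14 to 1.17) and for the HLA-E share (27.7% to 28.7%), and below them for the HLA-B share.

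The other genes of class I presentation and of checkpoint signalling were taken from lists, of which 123 of 150 genes could be tested. These lists too were chosen with earlier results of these data known, so their counts and p-values describe the listed genes only. In high against low glucose 46 of the 123 were called (37.4%, with 27 higher and 19 lower). Among all genes tested the share was 23.5% (14.6% higher and 8.91% lower). In chrysin against high glucose 82 were called (66.7%, with 29 and 53), beside 45.8% of all genes (24.9% and 20.9%). In chrysin against low glucose 83 were called (67.5%, with 33 and 50), beside 51% of all genes (29.7% and 21.3%). The medians of the 123 genes were 0.04, -0.10 and -0.11. Counts of single lists below are to be read beside the same shares of all genes.

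Of 7 tested genes in the list of other class I and class I-like heavy chains, 5 fell and 1 rose with chrysin against high glucose (median -0.36), by limma at an adjusted p under 0.05. The falls included FCGRT, the neonatal Fc receptor (-0.36, adjusted p = 0.00037), and the pseudogene HLA-L (-0.75, adjusted p = 0.0004). HLA-K, named after its values were seen, was another of the falls (-0.59, adjusted p = 0.045). It had only 3 to 21 reads per library, and its call was lost in 11 of 17 alternative analyses. MR1, which presents vitamin metabolites to MAIT cells, went the other way, from 5.38 ± 0.07 to 9.41 ± 0.34 FPKM (0.75, adjusted p = 7.9e-06). MR1 was the single call between glucose levels (0.22, adjusted p = 0.039), and that call was lost in 12 of 18 alternative analyses (adjusted p = 0.053 to 0.11), including those without any one of the 9 libraries. HLA-G was listed at 0 in every library. Beside the falls of heavy chains with chrysin, fibroblast markers fell too: 8 of 10 were lower and none higher than in high glucose, with the sums given beside CD274. LUM (-1.44, adjusted p = 3.1e-09) and COL1A2 (-0.76, adjusted p = 6.6e-09) were among them. Their part in the result was not tested.

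In the endoplasmic reticulum, chaperones of class I folding fell in high glucose. CALR (calreticulin), a lectin chaperone of the loading complex, averaged 2759.7 ± 34, 1923 ± 50 and 1736 ± 19 FPKM in the 3 groups (-0.52, adjusted p = 2.2e-07, and then -0.15, adjusted p = 0.00042). PDIA3 (ERp57), the thiol oxidoreductase bound to tapasin, fell likewise (-0.42, adjusted p = 3.5e-07, and -0.16, adjusted p = 0.00011). CANX (calnexin), which binds free heavy chains, fell in high glucose (-0.39, adjusted p = 6.8e-06) and rose with chrysin (0.29, adjusted p = 1.1e-05). UGGT1, the folding sensor, fell in high glucose (-0.36, adjusted p = 0.00023). Of the 10 genes tested 6 fell and 1 rose in high glucose (median -0.19). With chrysin 7 fell and 3 rose against high glucose (median -0.15), and 8 fell and 2 rose against low glucose (median -0.38). The single rise in high glucose was ERAP2, a trimming peptidase named after its values were seen (0.24, adjusted p = 0.013). No gene of the list rose when high glucose library 2 was left out. ERAP1, which trims peptides to class I length, fell by 0.30 in high glucose (adjusted p = 0.0023) and by a further 0.35 with chrysin (adjusted p = 0.00028). HM13, the signal peptide peptidase, rose with chrysin (0.28, adjusted p = 0.00014). TAP2, the partner of TAP1, was named for that role after its values were seen. With chrysin it rose from 7.35 ± 0.26 to 9.82 ± 0.52 FPKM (0.39, adjusted p = 0.00075), where TAP1 stood at 0.00.

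Among 13 genes of peptide supply, 2 rose and 2 fell in high glucose, and 2 rose and 5 fell with chrysin against high glucose (medians 0.03 and -0.05). TPP2, a cytosolic peptidase, fell in high glucose (-0.36, adjusted p = 0.00044) and NPEPPS, an aminopeptidase, rose (0.20, adjusted p = 0.001). LAP3, another aminopeptidase, fell (-0.13, adjusted p = 0.015), a call lost without low glucose library 3. With chrysin the immunoproteasome subunit PSMB9 fell (-0.45, adjusted p = 0.0006), as did the constitutive subunit PSMB6 (-0.26, adjusted p = 7.4e-06). PSME3, a proteasome activator, rose in high glucose (0.14, adjusted p = 0.0021) and with chrysin (0.21, adjusted p = 3.6e-05), and THOP1, which degrades peptides, rose with chrysin (0.29, adjusted p = 3.2e-05). The other immunoproteasome subunits, named after their values were seen, were PSMB10 (-0.56, adjusted p = 0.0023) and PSMB8 (-0.03, adjusted p = 0.7). The constitutive subunits PSMB5 (-0.05, adjusted p = 0.31) and PSMB7 (-0.12, adjusted p = 0.087), named in the same way, were not called with chrysin against high glucose.

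Of 9 genes of class I export and turnover, 3 rose and 2 fell in high glucose, and 5 rose and 1 fell with chrysin against high glucose (medians -0.01 and 0.18). SYVN1, a ubiquitin ligase of endoplasmic reticulum degradation, fell from 67.9 ± 3.9 to 35.1 ± 1.5 FPKM in high glucose (-0.94, adjusted p = 7.2e-07) and rose to 42.7 ± 1.5 with chrysin (0.28, adjusted p = 0.00086). UBE2J1, a ubiquitin-conjugating enzyme of the same route, fell in high glucose (-0.30, adjusted p = 0.0013). DERL1 (0.28, adjusted p = 0.00016) and SURF4 (0.19, adjusted p = 0.00026) rose with chrysin. The number of rises in high glucose went from 3 to 1 when low glucose library 1 or high glucose library 2 was left out, and to 0 for low glucose library 3. The single fall with chrysin was UBE2J1 (-0.15, adjusted p = 0.02), lost without high glucose library 2, chrysin library 1 or chrysin library 2.

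**Figure D4:**
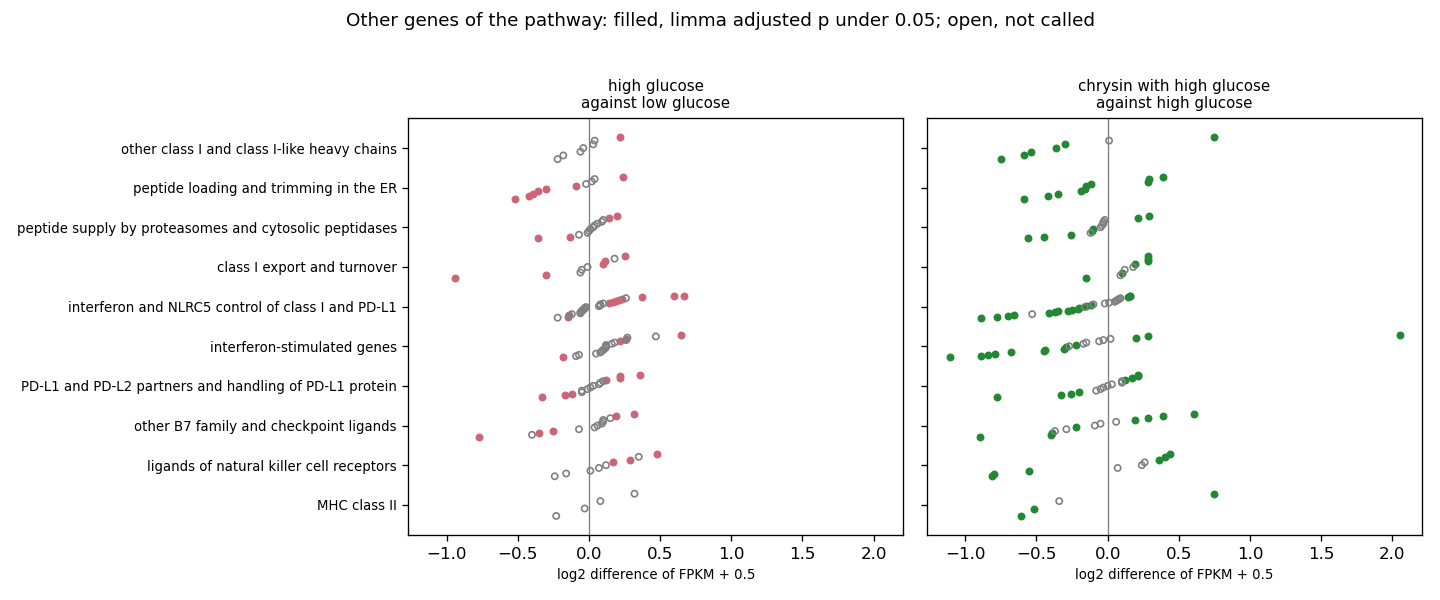
Differences on the log2(FPKM + 0.5) scale (horizontal axis, the same in both panels) of the tested genes in each list, for high against low glucose and for chrysin against high glucose. Filled points passed limma at an adjusted p under 0.05 and open points did not, and vertical offsets within a list only keep points apart.

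Among 26 genes of interferon signalling and class I transactivation, 8 rose and 2 fell in high glucose (median 0.02), and 3 rose and 13 fell with chrysin against high glucose (median -0.15). In high glucose SOCS3, a feedback inhibitor of cytokine signalling, rose from 22 ± 1.4 to 35.2 ± 0.32 FPKM (0.67, adjusted p = 2.3e-05) and returned to 20.4 ± 1.2 with chrysin (-0.78, adjusted p = 1.7e-06). The interferon receptor chains IFNGR2 (0.37, adjusted p = 0.00023) and IFNAR2 (0.60, adjusted p = 0.001) rose in high glucose. With chrysin PTPN2, a phosphatase that dampens cytokine signals, fell from 34.7 ± 1.7 to 21.2 ± 0.42 FPKM (-0.70, adjusted p = 7.8e-07), and NFKB1 from 18.7 ± 0.17 to 14.3 ± 0.41 (-0.37, adjusted p = 0.00012). IRF1 and NLRC5 were named for their roles after their values were seen. IRF1 was 11.7 ± 0.85, 11.3 ± 1.4 and 6.95 ± 0.77 FPKM in the 3 groups and fell with chrysin (-0.66, adjusted p = 0.00033). NLRC5 was 16.7 ± 0.43, 18.5 ± 0.63 and 16.7 ± 0.23 FPKM (0.14, adjusted p = 0.043, then -0.15, adjusted p = 0.021). Its call in high glucose was lost in 12 of 18 alternative analyses (0.09 to 0.16), among them those without any 1 library other than high glucose library 1, and its call with chrysin in 3 of 18, when high glucose library 2 or 3 or chrysin library 3 was left out. CD274 stood higher with chrysin and IRF1 lower, and a link between the 2 genes was not tested. The 8 rises in high glucose became 4 when low glucose library 1 was left out, and 5 for low glucose library 2, low glucose library 3 or high glucose library 2. The 2 falls became 0 when low glucose library 2, low glucose library 3, high glucose library 1 or high glucose library 2 was left out, and 1 for any single chrysin library. The 3 rises with chrysin became 1 without high glucose library 2, chrysin library 1 or chrysin library 2.

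Of 19 interferon-stimulated genes tested, 3 rose and 1 fell in high glucose (median 0.12), beside 14.6% and 8.91% of all genes. With chrysin against high glucose 3 rose and 10 fell (median -0.27), beside 24.9% and 20.9% of all genes. Calls lost in alternative analyses were among those falls: IFIT2 (6 of 17 alternatives), ISG15 (2 of 18), ISG20 (10 of 17) and GBP2 (6 of 17). IFIT1, an RNA-binding antiviral protein, was higher in high glucose (0.65, adjusted p = 0.00078 by limma) and lower again with chrysin (-0.84, adjusted p = 3.9e-05). With chrysin IFI44 fell from 28.9 ± 1.6 to 13.2 ± 0.9 FPKM (-1.11, adjusted p = 6e-07), IFI35 from 35.9 ± 0.33 to 20.5 ± 0.72 (-0.79, adjusted p = 6.3e-07) and IFIT3 from 9.16 ± 0.62 to 4.7 ± 0.17 (-0.89, adjusted p = 1.4e-05). IFI44 also rose in high glucose (0.26, adjusted p = 0.016), a call lost when low glucose library 1, low glucose library 3 or high glucose library 3 was left out. GBP1, a guanylate-binding protein, fell in high glucose (-0.18, adjusted p = 0.012) and rose with chrysin (0.28, adjusted p = 0.00032). Against low glucose, IFI27 rose in high glucose with chrysin, from 0.48 ± 0.24 to 5.09 ± 1.3 FPKM (2.52, adjusted p = 7.3e-06). The low glucose level of IFI27 rested on 3, 7 and 9 reads. In high glucose alone it was 0.837 ± 0.21 FPKM, not called against low glucose (0.47, adjusted p = 0.18). Against high glucose it rose with chrysin by 2.05 (adjusted p = 4.4e-05).

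Of 15 tested genes that bind or handle the PD-1 ligands, 4 rose and 3 fell in high glucose, and 4 rose and 4 fell with chrysin against high glucose (medians 0.03 and 0.00). RGMB, a binding partner of PD-L2, fell in high glucose (-0.33, adjusted p = 0.00019) and rose with chrysin (0.21, adjusted p = 0.00097). HIP1R, which sends PD-L1 protein to lysosomes, rose in high glucose from 14.2 ± 0.31 to 18.4 ± 1.1 FPKM (0.36, adjusted p = 0.0012) and fell to 10.5 ± 0.37 with chrysin (-0.78, adjusted p = 1.7e-06). STT3B, a catalytic subunit of the oligosaccharyltransferase, fell in both comparisons (-0.17, adjusted p = 0.0029, and -0.33, adjusted p = 9.3e-06). ZDHHC3, a palmitoyltransferase, rose in high glucose (0.22, adjusted p = 0.0026), and OTUB1, a deubiquitinase, fell with chrysin (-0.26, adjusted p = 0.00078). PDCD1, the receptor PD-1 itself, was listed at 0 in every library.

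Other checkpoint ligands moved in both directions: of 13 tested, 2 rose and 3 fell in high glucose, and 4 rose and 4 fell with chrysin against high glucose (medians 0.06 and -0.09). PVR (CD155), a ligand of TIGIT and DNAM-1, fell in high glucose (-0.35, adjusted p = 7.6e-05) and rose with chrysin (0.28, adjusted p = 9.1e-05). CD276 (B7-H3) rose in high glucose from 49.8 ± 2 to 62.4 ± 3.1 FPKM (0.32, adjusted p = 0.00043), and TNFSF4 (OX40 ligand) fell (-0.77, adjusted p = 0.00036). With chrysin NT5E (CD73), the ectoenzyme that makes adenosine, rose from 90.1 ± 1.5 to 138 ± 2.7 FPKM (0.61, adjusted p = 9.4e-08), and VSIR (VISTA) fell from 13.9 ± 0.62 to 7.23 ± 0.68 (-0.90, adjusted p = 1.7e-05). NECTIN2 rose in high glucose (0.19, adjusted p = 0.0045) and ICAM1, an adhesion molecule, fell with chrysin (-0.22, adjusted p = 0.00013). VTCN1 (B7-H4) was listed at 0.

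Ligands of natural killer cell receptors rose with chrysin in 3 of 9 cases against high glucose and fell in 3 (median 0.24). MICA, a stress ligand of NKG2D, rose from 64.2 ± 2.5 to 87.1 ± 0.6 FPKM (0.44, adjusted p = 6.7e-06) and MICB from 26.4 ± 1.5 to 35 ± 0.95 (0.40, adjusted p = 5.7e-05). CLEC2B, ligand of NKp80, fell from 15 ± 0.57 to 8.37 ± 0.84 FPKM (-0.81, adjusted p = 7.5e-06), and RAET1G, another NKG2D ligand, fell (-0.80, adjusted p = 0.0038). In high glucose MICB, ULBP2 and ULBP3 were called higher, with calls lost in 4 of 18, 7 of 18 and 14 of 17 alternative analyses. That count of 3 became 1 when any single high glucose library was left out, and 0 for low glucose library 1 or 2. For MHC class II, HLA-DRA, HLA-DRB1, HLA-DQA1 and HLA-DQB1 were listed at 0. With chrysin against high glucose HLA-DPA1 (-0.61, adjusted p = 0.00086) and HLA-DPB1 (-0.52, adjusted p = 0.0027) fell and HLA-DMA rose (0.75, adjusted p = 0.00038). None of the 4 tested class II genes was called in high glucose (medians 0.03 and -0.43 in the first and second comparisons), and 1 was without high glucose library 3 or chrysin library 3.

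The genes whose levels followed CD274 most closely over the 9 libraries, among 9836 other tested genes that averaged 5 FPKM or more, were CTPS1 (Pearson r 0.9890 on the log2(FPKM + 0.5) scale), TRAF5 (0.9884), BDNF (0.9799), SLC20A2 (0.9771) and USP36 (0.9768). BDNF, a neurotrophin, went from 18.9 ± 0.85 to 12.9 ± 0.65 and 19.7 ± 0.88 FPKM in low glucose, high glucose and chrysin, the same order with a smaller span. In all, 42 genes had an r above 0.95 with CD274. For the mean log2 level of the 4 heavy chains the closest of 9833 included NEXN (0.9926), ENPP2 (0.9913), GJA1 (0.9909) and PDE4DIP (0.9892), and 360 genes exceeded 0.95. GJA1, the gap junction protein connexin 43, went from 51.1 ± 1.8 to 42.6 ± 2.8 and 25.7 ± 1.1 FPKM. For PDCD1LG2 the closest of 9837 was ZNF771 (0.8824), followed by CHKA (0.8729), SAC3D1 (0.8637), LYSMD2 (0.8611) and EIF3G (0.8404), with no gene above 0.95. The libraries form 3 groups, share treatments and were searched for the highest values, so these coefficients describe likeness only.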

How the data were processed

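The 9 polyadenylated RNA libraries of AC16 cells were grouped 3, 3 and 3 by the treatment label. The authors deposited 1 table of FPKM for 60671 genes; the unit was read from the values, since no header names it. Per the submitters' processing notes the build was hg38 and the tools included HISAT2 2.2.1 and StringTie 2.2.1, besides HTSeq 0.13.5 and fastp 0.23.4. The sources used here do not give the role of each tool, the annotation release or the strand setting. The lengths implied by the FPKM lay close to the mean GENCODE 29 transcript length of each of the 9 genes. In every library the values of the 28230 genes above 0 in more than 1 library were whole multiples of a step, within 4.5e-05 reads, which gave whole reads for all of them (100%). The 4119 genes above 0 in 1 library were given 1 read.

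Genes averaging 0.5 FPKM or more in any group were tested with limma 3.58.1 (R 4.3.3) and a mean-variance trend on log2(FPKM + 0.5). All 9 libraries entered 1 fit with no block, and each comparison was a two-sided contrast with Benjamini-Hochberg adjustment over 16996 genes. A gene is called at an adjusted p under 0.05. The script was tested on simulated data.

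The 9 genes and the 14 lists, 4 of them cell type markers, were chosen with earlier results of these data known. Genes named from a list are those with the smallest p in a comparison among those called, at most 4, and genes at 0 that define it; others are said to have been named after their values were seen. Genes alike to CD274, PDCD1LG2 and the heavy chains are the 5 with the highest Pearson r. Some genes that these rules name are not reported here. Positions come from GENCODE 29 and promoter windows from RefSeq (GRCh38.p14), matched by symbol. The 18 alternatives were limma voom on the recovered reads, scaling by median of ratios, pseudocounts of 0.1 or 1, a minimum mean of 5 FPKM or none, the replicate block, only the groups compared, a loess correction for GC content and length (span 0.4, known for 96.1% of tested genes), and leaving out each library. Counting each list's calls without each library was added after the data were seen. Entries that shared a gene name (1094) were kept as separate genes.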

Additional observations from a re-analysis of the deposited data

How the results depend on the processing

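The counts called among all genes, among the pathway genes as 1 set and among the 9 genes stayed within 1.5 times under the 18 alternatives, while several counts of single lists did not, as given beside them. Of the 9 genes 4 to 6 were called in high against low glucose, 6 to 7 in chrysin against high glucose and 4 to 6 in chrysin against low glucose. CD274 kept its direction and its call in both comparisons with high glucose, at -1.07 to -0.96 and 1.05 to 1.16. The correlations of deviations between same-numbered libraries ran from -0.10 to 0.06, and those between differently numbered libraries from -0.07 to 0.10. No pairing by number was seen, but such values cannot exclude a shared culture or day. With the replicate block 3693, 7546 and 8423 genes were called in the order of comparisons above, with 42, 77 and 83 of the pathway and 5, 7 and 5 of the 9.

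The signs that changed belonged to differences that were not called and lay within about 1.5 standard errors of 0. In chrysin against high glucose PDCD1LG2 was 0.00 with a pseudocount of 0.1, -0.01 with median-of-ratios scaling and -0.05 with the GC and length correction. Leaving out high glucose library 2 or 3 gave -0.01 and -0.03, and leaving out chrysin library 2 or 3 gave -0.06 (over all libraries left out in turn, -0.06 to 0.12). TAP1 in that comparison was -0.01 with median-of-ratios scaling, -0.04 without high glucose library 3 and -0.05 without chrysin library 1 (range -0.05 to 0.06). In chrysin against low glucose PDCD1LG2 was 0.00 without chrysin library 2 and 0.00 with the GC and length correction, with 0.00 to 0.18 over all libraries left out in turn, and HLA-E was 0.02 without chrysin library 2 (range -0.03 to 0.02). TAPBP was -0.03 with median-of-ratios scaling, -0.06 with the GC and length correction, and -0.02 without low glucose library 3 or chrysin library 3 (range -0.02 to 0.04). The cause was not tested.

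HLA-B was called lower in high than in low glucose with a minimum mean of 5 FPKM (-0.11), voom (-0.11), median-of-ratios scaling (-0.14), the GC and length correction (-0.18), and without low glucose library 1 (-0.16). HLA-E was called lower with chrysin than in low glucose after the GC and length correction (-0.08). Of all called genes of the lists, markers included, 20 of 52 in high against low glucose, 20 of 93 in chrysin against high glucose and 13 of 94 in chrysin against low glucose lost the call under at least 1 alternative, and none changed sign. HLA-F (72 to 138 reads) and CD274 (201 to 500 reads) are the members for which depth limits precision most, together with PDCD1LG2 (178 to 282 reads).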
